A study of Mus musculus with 4 samples.

Results

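The enzymes of long-chain fatty acid oxidation were examined in epididymal fat, a visceral fat depot attached to the epididymis, in C57Bl/6J mice. Genes were chosen by symbol: the carnitine palmitoyltransferases Cpt1a, Cpt1b and Cpt2, the acyl-CoA dehydrogenases Acadm, Acadl and Acadvl, both subunits of the mitochondrial trifunctional protein (Hadha and Hadhb) and the nuclear receptor gene Ppara. Of these 9 genes, 8 were measured among 18194 genes in all, each through the probe set whose mean log2 signal over the 4 arrays was highest. Cpt1b had no probe set of its own.

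All mice ate high-fat feed, in which fat supplied 60% of energy, for 21 weeks starting at the age of 9 weeks. The high-calcium diet held 1.8% calcium and whey protein isolate, and the standard high-fat diet held 0.4% calcium. Of 10 mice per diet, 2 were profiled, 1 array each. Labels gave 2 arrays to the high-calcium diet and 1 to the standard diet. The title of the remaining array names dietary calcium and dairy proteins, words that also stand in a label of high-calcium replicate 2, while the stated number of mice would make it a control. Its values are given, but it entered no comparison. Calcium and whey protein differed together between the diets, so their parts cannot be told apart. Nor can a diet difference be told from a difference between the single standard-diet mouse and the rest.

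In the cell, long-chain fatty acids activated to acyl-CoA enter mitochondria through the carnitine shuttle, in which CPT1 at the outer membrane is the controlled step and malonyl-CoA its inhibitor. CPT2 at the inner membrane returns the acyl group to coenzyme A, and repeated cycles of dehydrogenation, hydration, renewed dehydrogenation and thiolysis shorten the chain. PPAR alpha, bound to DNA together with a retinoid X receptor, is the classical activator of these genes in liver, whereas white fat relies mainly on PPAR gamma and stores more fatty acid than it burns.

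Hadha and Hadhb lie head to head on chromosome 5 of the mouse, and the 272 bases between their first transcribed bases are printed. They were picked because the probe sets used for both genes had a low signal on one high-calcium array and a raised one on the other. The other Hadhb probe sets were lower on both high-calcium arrays, as described further on. The stretch is chr5:30154981-30155252 of GRCm38.p6 on the plus strand, from RefSeq, with transcription of Hadha leaving its left end and that of Hadhb its right end. The Acadm stretch, the 250 bases before the start at chr3:153944644-153944893 on the minus strand, is printed because it held the most matches to receptor half-sites among the members. Capitals mark GGGCGG (the GC box bound by Sp1 proteins) in the first sequence. In the second they mark AGGTCA (the half-site of PPAR dimers) or AAGGTC (the core bound by estrogen-related receptors), on either strand.
Hadha and Hadhb: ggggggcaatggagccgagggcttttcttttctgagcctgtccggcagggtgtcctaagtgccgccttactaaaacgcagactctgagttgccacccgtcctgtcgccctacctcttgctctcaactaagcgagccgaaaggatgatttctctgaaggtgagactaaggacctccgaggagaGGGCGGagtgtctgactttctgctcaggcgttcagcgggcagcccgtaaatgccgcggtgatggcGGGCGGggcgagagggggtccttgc
Acadm: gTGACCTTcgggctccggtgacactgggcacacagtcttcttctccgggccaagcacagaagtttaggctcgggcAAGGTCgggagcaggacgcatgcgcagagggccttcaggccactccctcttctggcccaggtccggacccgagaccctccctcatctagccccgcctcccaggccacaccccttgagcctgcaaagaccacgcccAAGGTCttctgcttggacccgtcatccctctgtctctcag
The first capital run of Acadm joins overlapping matches of both motifs on the opposite strand. Over the 250 bases before the start, 3 of 8 members held AGGTCA, namely Cpt1a, Acadm and Acadvl, against 14.0% of 32817 RefSeq promoter windows. AAGGTC was found in Acadm only, with 3 matches, against 10.6% of windows. GGGCGG was found in 6 of 8 members, Hadha and Hadhb among them with overlapping windows, against 32.7% of windows. An exact full PPAR element, AGGTCA repeated after 1 base, was in 0 of 8 members and in 0.0335% of windows. Elements with other letters or outside the 250 bases were not searched, so their absence is not shown. These matches describe letters and do not show binding.

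Signals were deposited on a linear scale and are given as log2. Median linear signal over all probe sets was 0.0963 and 0.0628 on high-calcium replicates 1 and 2, 0.0624 on the standard array and 0.0585 on the array of unsettled diet. A signal above the median of its own array was taken as above background. The 7 enzyme genes were above it on every array, at 12.8 to 122 times the median on high-calcium replicate 1, 23.2 to 217 times on replicate 2, 25.3 to 223 times on the standard array and 24.9 to 256 times on the array of unsettled diet. Over 10610 genes above background on the 3 labelled arrays the median differed from that of the standard array by 0.086 on replicate 1 and -0.006 on replicate 2, so the higher median of replicate 1 (0.62 above the standard array over all probe sets) came mainly with dim probe sets. The 2 high-calcium arrays came from different mice, so the tests measure the spread between these mice only, measurement error included.

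The fatty acid oxidation enzymes were lower on high-calcium replicate 1 than on the standard array, all 7 of them, by 0.24 to 0.39 on the log2 scale. On high-calcium replicate 2 the same genes lay on both sides of the standard array, with 5 lower and 2 higher, between -0.29 and 0.21. Cpt1a, Cpt2, Acadm, Acadl and Acadvl were thus lower on both arrays and Hadha and Hadhb on replicate 1 only. None passed limma's test: adjusted p was 0.9999 for each, and unadjusted p ranged from 0.482 for Acadvl to 0.954 for Hadha. Over all 18194 genes the same fit called 0, or 0%, with 898 at an unadjusted p under 0.05, and 6 with a variance trend and robust estimation, none of them a member.

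**Figure D1:**
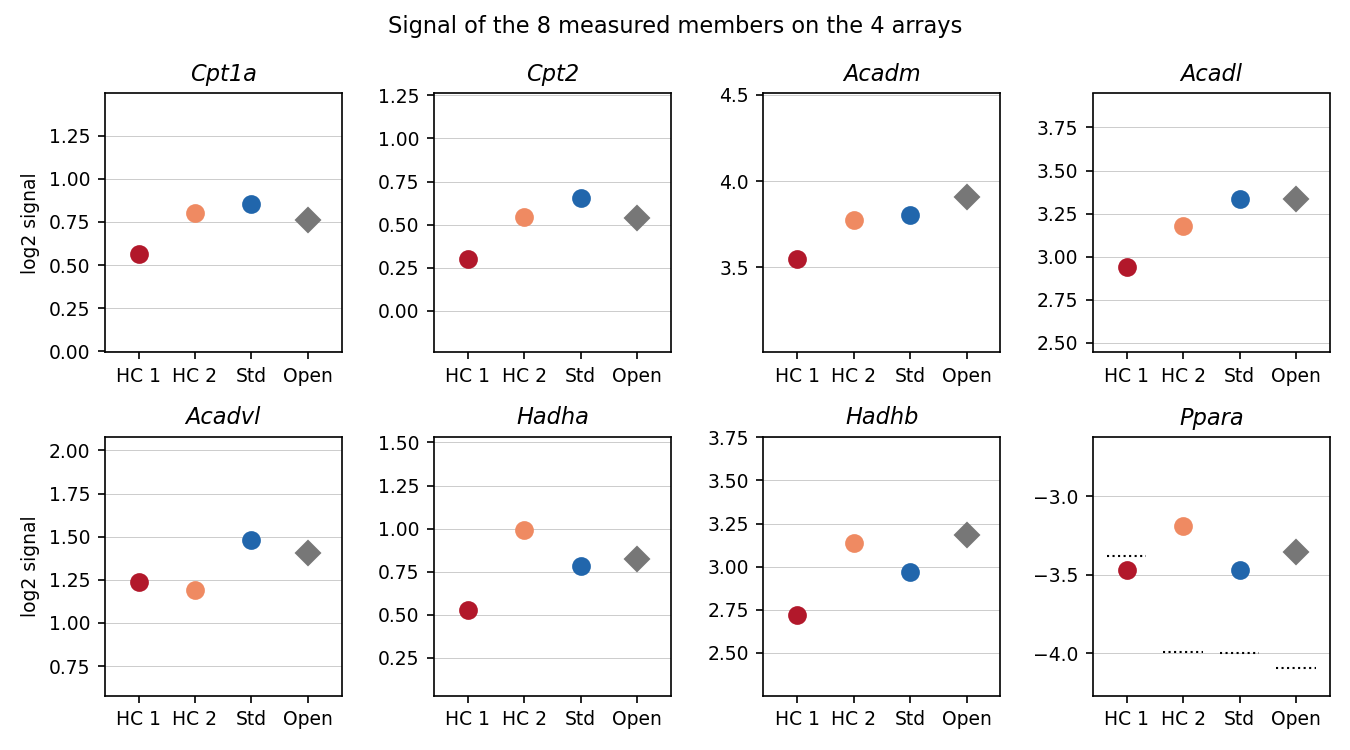
Log2 signal (vertical axis, deposited scale) of the 8 measured members on each array: high-calcium replicates 1 and 2 (HC 1, HC 2), the standard array (Std) and the array of unsettled diet (Open). Dotted lines in the Ppara panel are the array medians. Replicate 1 is the lowest array in 6 of the 7 enzyme panels, and in the Acadvl panel replicate 2 is lowest.

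Cpt1a, the liver-type CPT1, had log2 signals of 0.56 and 0.80 on high-calcium replicates 1 and 2, 0.85 on the standard array and 0.76 on the array of unsettled diet. Both high-calcium values were below the standard one, replicate 2 by only 0.05. The mean difference was -0.17 (SE 0.35), with a 95% interval from -1.45 to 1.11. Cpt1a had 2 further probe sets, both of the kind that can also bind other transcripts. The first had -1.08 and -0.99 on the high-calcium replicates, -0.38 on the standard array and -0.26 on the array of unsettled diet. Here both high-calcium arrays lay 0.61 to 0.70 below the standard array, while the high-calcium pair differed by 0.086. The second had -2.09 and -2.18 on the high-calcium replicates, -1.87 on the standard array and -1.84 on the array of unsettled diet. All 3 Cpt1a probe sets were therefore lower on both high-calcium arrays, with unadjusted p from 0.254 to 0.742 in a limma fit over all probe sets.

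Cpt2, which completes the shuttle inside the mitochondrion, had 0.30 and 0.54 on high-calcium replicates 1 and 2, against 0.66 on the standard array and 0.54 on the array of unsettled diet. Both high-calcium arrays were lower, and the mean difference was -0.23 (SE 0.35; 95% interval -1.52 to 1.05). A dim second probe set of Cpt2 went the other way, at -2.50 and -3.42 on the high-calcium replicates and -3.95 on the standard array, which was only 1.04 times the median of that array. The array of unsettled diet had -2.85 for it.

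The partner genes of the shuttle were taken from a list of 25 other genes of mitochondrial fatty acid oxidation and its control, Acacb included. Slc25a20, the carnitine-acylcarnitine translocase, had 1.52 and 1.42 on the high-calcium replicates, 1.74 on the standard array and 1.83 on the array of unsettled diet. Acacb, the acetyl-CoA carboxylase that makes malonyl-CoA at mitochondria, had -1.66 and -2.01 on the high-calcium replicates, -2.40 on the standard array and -2.45 on the array of unsettled diet. Mlycd, malonyl-CoA decarboxylase, had -2.54 and -2.15 on the high-calcium replicates, -2.03 on the standard array and -1.76 on the array of unsettled diet. Acacb was thus higher on both high-calcium arrays, and Mlycd and Slc25a20 were lower on both. The mean differences were 0.57 (SE 0.37) for Acacb, -0.31 (SE 0.39) for Mlycd and -0.27 (SE 0.32) for Slc25a20, with unadjusted limma p of 0.247, 0.495 and 0.475. The directions of Acacb, Mlycd and Slc25a20 on each array held after quantile normalization and on median-centred arrays. Crat and Slc22a5, also carnitine genes of the list, went both ways. Against the standard array Crat differed by 0.07 and -0.28 on the high-calcium replicates, and Slc22a5 by -0.06 and 0.23. Of all genes, 38.6% were higher and 23.9% lower on both high-calcium arrays.

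**Figure D2:**
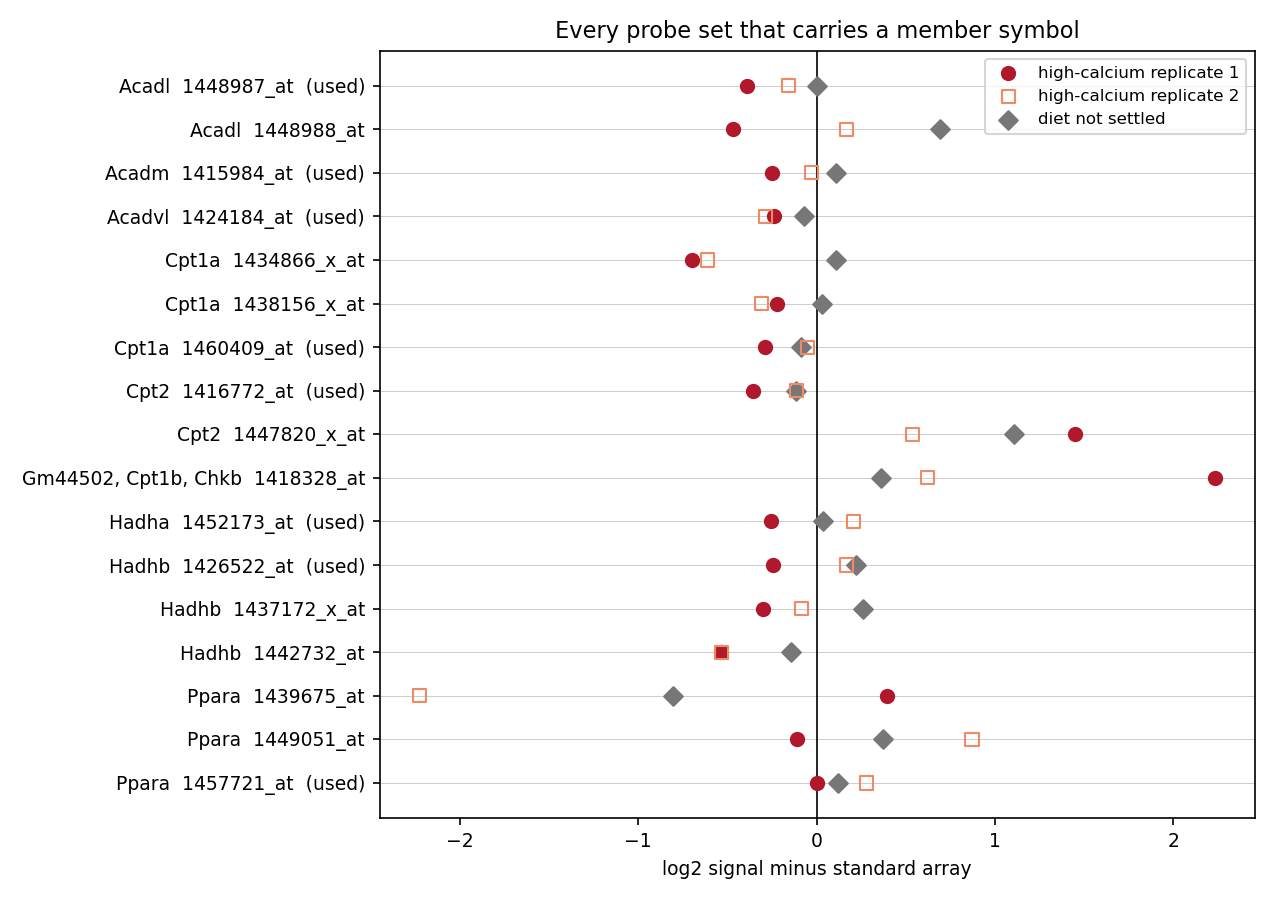
Log2 signal minus that of the standard array (horizontal axis) for every probe set with a member symbol, on high-calcium replicate 1 (filled circles), high-calcium replicate 2 (open squares) and the array of unsettled diet (diamonds). The Cpt1a probe sets lie left of 0 on both high-calcium arrays, and the probe set of Gm44502, Cpt1b and Chkb lies farthest right, at 2.23 on replicate 1.

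The acyl-CoA dehydrogenases open each round of oxidation and differ in the chain length they prefer. Acadm, for medium chains, had 3.55 and 3.77 on high-calcium replicates 1 and 2, 3.80 on the standard array and 3.91 on the array of unsettled diet. Acadl, for long chains, had 2.94 and 3.18 on the high-calcium replicates, 3.33 on the standard array and 3.33 on the array of unsettled diet. Acadvl, the inner-membrane enzyme for very long chains, had 1.24 and 1.19 on the high-calcium replicates, 1.48 on the standard array and 1.41 on the array of unsettled diet. In each of these genes both high-calcium arrays were below both other arrays.

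Mean differences were -0.14 (SE 0.34) for Acadm, -0.27 (SE 0.34) for Acadl and -0.26 (SE 0.32) for Acadvl. Acadl and Acadvl were the only enzyme genes whose mean difference exceeded the gap between the high-calcium replicates, with replicate 2 minus replicate 1 at 0.23 and -0.05. In the other 5 the replicates differed by more than the diets. The second probe set of Acadl was not above background on any labelled array. Among other dehydrogenases, Acads, for short chains, differed by -0.13 and -0.08 on the high-calcium replicates and by -0.37 on the array of unsettled diet.

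Hadha, the trifunctional subunit with hydratase and hydroxyacyl-CoA dehydrogenase activity, had 0.53 and 0.99 on high-calcium replicates 1 and 2, 0.79 on the standard array and 0.82 on the array of unsettled diet. Hadhb, the thiolase subunit, had 2.72 and 3.13 on the high-calcium replicates, 2.97 on the standard array and 3.19 on the array of unsettled diet. In both genes replicate 1 was the lowest array, and replicate 2 lay above the standard array. The gap between the high-calcium replicates was 0.46 for Hadha and 0.41 for Hadhb, the widest among the 7 enzyme genes. The mean difference was -0.03 (SE 0.41) for Hadha, with a 95% interval from -1.55 to 1.498, and -0.04 (SE 0.39) for Hadhb.

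A second bright probe set of Hadhb did not place replicate 2 above the standard array. It had 2.58 and 2.80 on the high-calcium replicates, 2.88 on the standard array and 3.14 on the array of unsettled diet. Its remaining, dim probe set had -3.09 and -3.08, against -2.55 on the standard array and -2.70 on the array of unsettled diet. Hadh, the separate hydroxyacyl-CoA dehydrogenase for shorter chains, was lower on both high-calcium arrays, at 4.28 and 4.39 against 4.57 on the standard array and 4.44 on the array of unsettled diet. Etfdh, of the other mitochondrial genes, was also lower on both, by -0.30 and -0.03. Acaa2, a mitochondrial thiolase, was higher on both, by 0.003 and 0.16, and by 0.17 on the array of unsettled diet. On median-centred arrays its replicate 1 difference was -0.62, and after quantile normalization 0.04.

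**Figure D3:**
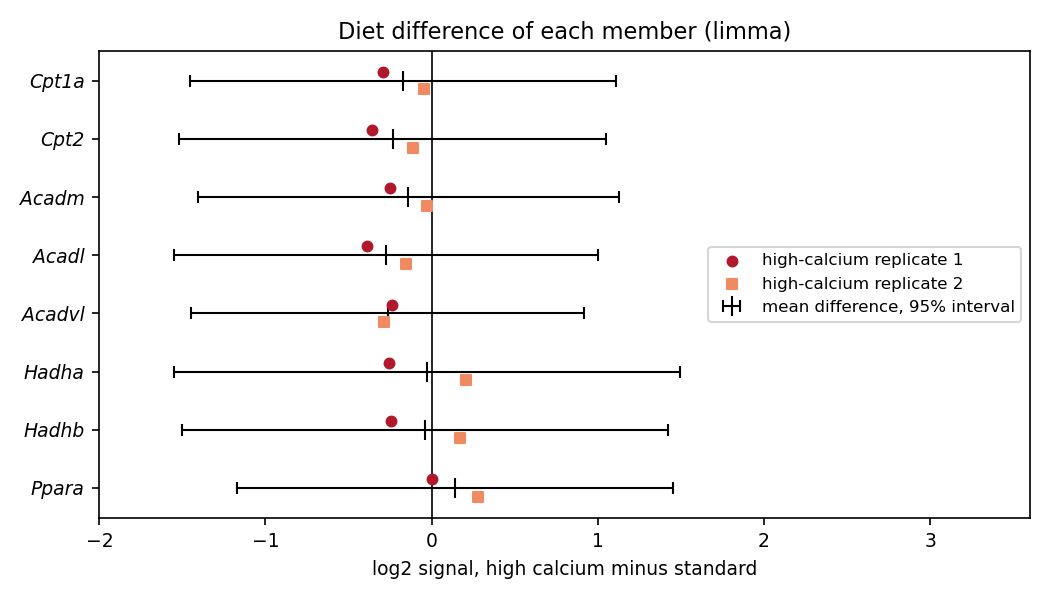
Difference in log2 signal, high calcium minus standard (horizontal axis), for each member, with the limma mean and its 95% interval (black) and the values of high-calcium replicates 1 (circles) and 2 (squares). Every interval spans 0, and the means of the enzyme genes lie between -0.27 and -0.03.

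As folds, the enzyme genes averaged 0.828 to 0.982 of the standard level on the high-calcium diet. The lower ends of the 95% intervals were folds of 0.342 to 0.377 and the upper ends folds of 1.89 to 2.82. The number of arrays limits this precision, since the spread rests on 1 residual degree of freedom.

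Ppara was close to the background. Its probe set had -3.47 and -3.19 on high-calcium replicates 1 and 2, -3.47 on the standard array and -3.35 on the array of unsettled diet. These were 0.938, 1.74, 1.45 and 1.67 times the array medians, so this probe set was not above background on replicate 1. The mean difference was 0.14 (SE 0.35), and its sign was negative after quantile normalization (-0.16) and on median-centred arrays (-0.18). The other 2 Ppara probe sets disagreed, one with -3.09 on replicate 1, which was 1.22 times the array median, and -5.71 on replicate 2, against -3.49 on the standard array and -4.30 on the array of unsettled diet. The last had -4.58 and -3.60, against -4.47 on the standard array and -4.09 on the array of unsettled diet. No direction is drawn for Ppara.

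Among 13 listed partners of PPAR signalling 12 were measured, of which 6 were lower and 1 higher on both high-calcium arrays. Over all genes 23.9% were lower and 38.6% higher on both. After quantile normalization the partner counts were 5 lower and 1 higher, against 30.1% and 31.8% of all genes. Rxra, a dimer partner, differed by -0.25 and -0.02 on the replicates and by -0.19 on the array of unsettled diet. After quantile normalization its replicate 2 difference was 0.002. Ppargc1a, a coactivator of oxidative metabolism, differed by -0.04 and -0.55, and by -0.43 on the array of unsettled diet. Esrra, an estrogen-related receptor that acts with it, had a mean difference of 0.003 (SE 0.33), with -0.08 on replicate 1 and 0.09 on replicate 2. None passed limma's test.

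Of 15 other PPAR target genes 12 were measured, with 5 higher and 2 lower on both high-calcium arrays. The share higher, 41.7%, was near that of all genes (38.6%). The counts were 4 higher and 3 lower after quantile normalization, and 1 higher and 2 lower on median-centred arrays. As deposited, 8 of these genes were above background on the 3 labelled arrays, with 4 higher and 1 lower on both. The shares of all genes above background were 35.5% higher and 26.8% lower. Pdk4, the kinase that shuts pyruvate dehydrogenase when fatty acids are burned, had 1.23 and 1.59 on the high-calcium replicates, 0.82 on the standard array and 1.58 on the array of unsettled diet. The standard array was thus lower in Pdk4 than each of the other arrays. The mean difference was 0.59 (SE 0.38), with an unadjusted p of 0.239 from limma. On median-centred arrays replicate 1 lay below the standard array (-0.22), and after quantile normalization above it (0.44). Angptl4, an inhibitor of lipoprotein lipase, differed by 0.15 and 0.33 on the replicates and by 0.12 on the array of unsettled diet. After centring its replicate 1 difference was -0.47, and after quantile normalization 0.15.

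Peroxisomal oxidation, which handles very long and branched chains, had no enzyme among the members. Of a separate list of 22 peroxisomal genes 20 were measured, with 6 lower and 7 higher on both high-calcium arrays and a median difference of -0.05. The share higher on both, 35%, was near the 38.6% of all genes, and on median-centred arrays the counts were 10 lower and 2 higher. Ehhadh, the peroxisomal bifunctional enzyme, had -0.10 and -1.09 on the high-calcium replicates, -1.15 on the standard array and -1.12 on the array of unsettled diet. Replicate 1 alone was high in Ehhadh. Hsd17b4, the other multifunctional enzyme, differed by -0.24 and 0.02, and Acaa1a, a thiolase, by 0.34 and 0.14. Acaa1a on replicate 1 turned to -0.28 on median-centred arrays and was 0.25 after quantile normalization. Pex11a, a factor of peroxisome division, differed by 0.14 and -0.24.

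By count, 5 of 8 measured members were lower on both high-calcium arrays and 1 was higher, with a median difference of -0.16. Over all genes 23.9% were lower on both and 38.6% higher, with a median of 0.079. Over genes above background the shares were 26.8% and 35.5%, against 5 and 0 of 7 enzyme genes. On replicate 1 all 7 enzyme genes were lower, against 42.1% of genes above background, and on replicate 2 the figures were 5 of 7 and 49.2%. The other mitochondrial genes had 12 of 24 measured lower and 4 higher on both, Acacb among the 4, with a median of -0.08. The median on replicate 1 was -0.26 for the members and -0.09 for these other mitochondrial genes, and on replicate 2 it was -0.04 and -0.10. The difference between the lists was not tested. Members of one pathway vary together and share arrays, so the counts are not independent.

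**Figure D4:**
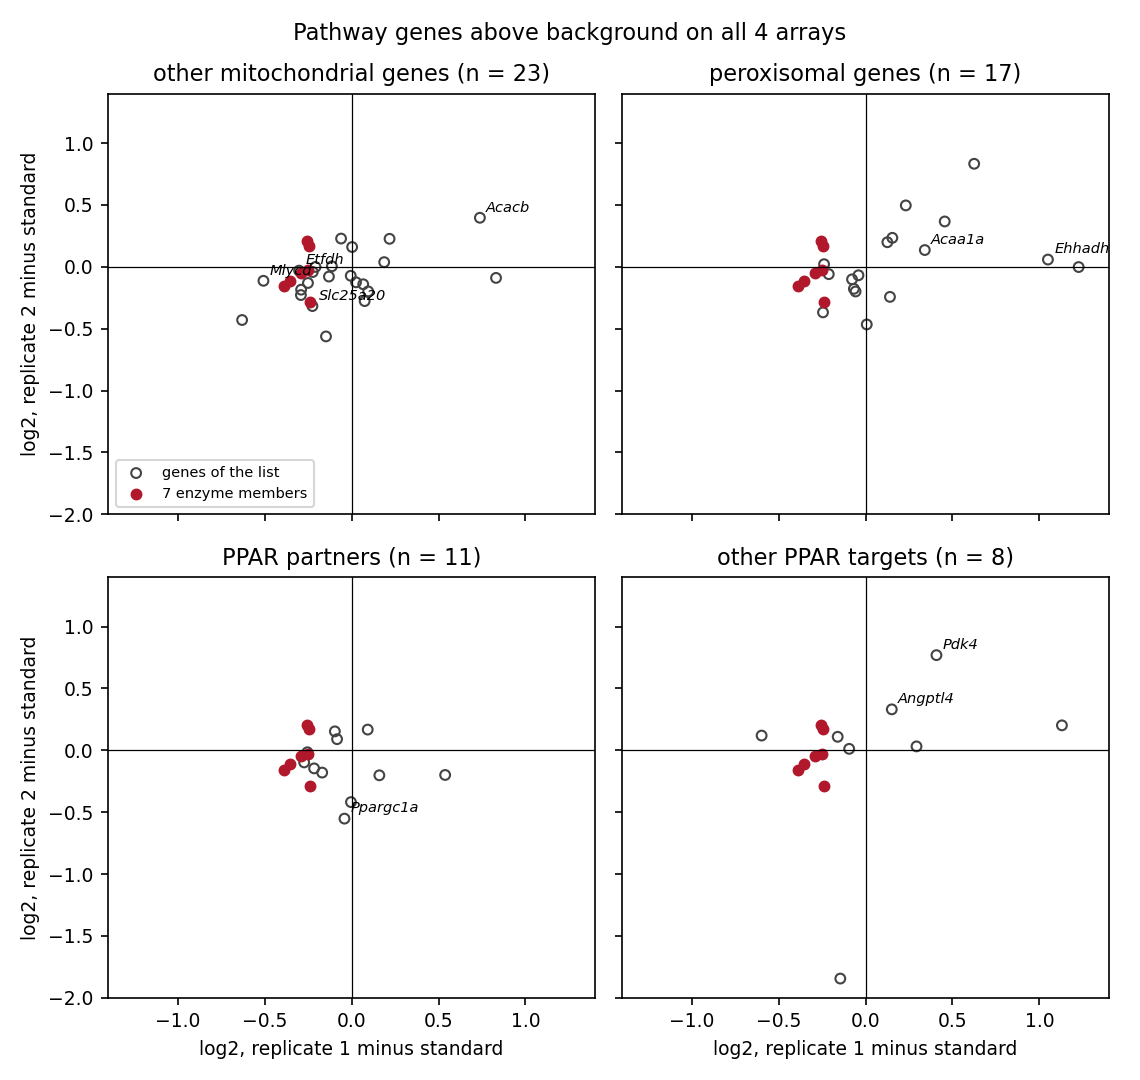
Log2 signal minus that of the standard array on high-calcium replicate 1 (horizontal) and replicate 2 (vertical) for genes above background on all 4 arrays, 1 panel for each list (open circles, 23, 17, 11 and 8 genes), with the 7 enzyme members as filled circles. The members sit in a narrow band left of 0 on replicate 1 and on both sides of 0 on replicate 2, while Acacb and Pdk4 lie at the upper right.

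Scaling changed the size of the differences on replicate 1. On replicate 1 the median difference of the members was -0.26 as deposited, -0.27 after quantile normalization and -0.88 with arrays centred on their medians. Over all genes the corresponding medians were 0.19, 0.000 and -0.43. The number of members lower on both arrays was 5 under each scaling, while the share of all genes lower on both was 23.9% as deposited, 30.1% after quantile normalization and 38.8% on centred arrays. The share of all genes higher on both was 38.6%, 31.8% and 20.4% under these scalings, in the same order. Of the 24 other mitochondrial genes, 17 were lower and 1 (Acacb) was higher on both arrays after centring, and of the 12 PPAR partners 8 and 0.

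Markers of some other cells also set replicate 1 apart, while the endothelial and brown adipocyte sums were highest on the standard array. All 7 smooth muscle markers were higher there than on the standard array, with a summed linear signal of 67.1 on replicate 1 and 8.82 on replicate 2, against 10.1 on the standard array. Macrophage markers (0 of 7 higher on replicate 1) summed to 18.7 and 35.04, against 33.8. Skeletal muscle markers, 2 of 10 above background on all 3 labelled arrays, summed to 5.66 and 2.16, against 2.64. Markers of epididymis and sperm, 2 of 7 measured above background on these arrays, summed to 11.6 and 0.382, against 1.66. Adipocyte markers, all 6 measured above background, summed to 89.9 and 82.1, against 80.0. Single markers went both ways, with Retn at 4.60 and 4.06, against 4.20, and Adipoq at 5.15 and 5.02, against 5.12. Brown adipocyte markers summed to 2.21 and 2.52, against 3.40, and Ucp1, the defining one, was below background on both high-calcium arrays and on the standard array. Endothelial markers summed to 4.56 and 3.98, against 6.82. The array of unsettled diet had sums of 7.16 for smooth muscle, 36.9 for macrophages, 2.40 for skeletal muscle, 0.215 for epididymis and sperm, 76.9 for adipocytes, 2.97 for brown adipocytes and 4.02 for endothelium. The part of tissue make-up in the values of replicate 1 or of the standard array was not tested. In bulk fat, fewer cells of a type and less RNA per cell cannot be told apart.

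Cpt1b, the muscle-type CPT1, stood in the annotation only on a probe set that also carried Chkb, its neighbour gene, and Gm44502, so its own level was not measured. That probe set had -1.96 and -3.57 on high-calcium replicates 1 and 2, -4.20 on the standard array and -3.83 on the array of unsettled diet. Replicate 1 was high, and the standard array was under background at 0.873 times its median. A probe set of Chkb alone had -0.59 and -0.66 on the high-calcium replicates, -0.64 on the standard array and -0.38 on the array of unsettled diet, so replicate 1 did not stand out in it. Smooth muscle markers were high on the same array, as given above. Of 10 skeletal muscle markers, 9 were higher there than on the standard array, but only 2 were above background on all 3 labelled arrays. Myl1, the brightest of them on the standard array, was lower on replicate 1, at 0.09 against 0.89. The part of muscle RNA in the value of the shared probe set was not tested. The remaining form, Cpt1c, a brain-type protein, had -2.81 and -3.88 on the high-calcium replicates, -3.67 on the standard array and -4.47 on the array of unsettled diet. These values were close to background, at 1.48, 1.08, 1.26 and 0.772 times the array medians in the same order. Replicate 1 was the highest array, by 0.86 over the standard array as deposited and by 0.24 on median-centred arrays.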

How the data were processed

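Total RNA of epididymal fat from 4 mice was measured on Affymetrix arrays with 45101 probe sets. Deposited values are intensities, 1 linear signal per probe set and array. Per the submitters' processing notes, RMA was used (version not stated). The intensities as deposited are linear and reach down to 0.01 of each array's median, so they are not plain log2 RMA output, and their scaling and the genome build are not given in the sources used.

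Signals were log2 transformed with no added constant. Platform annotation named the probe sets, with 34958 carrying 1 symbol, 932 several and 9211 none. High-calcium minus standard differences were fitted with limma 3.58.1 in R 4.3.3 (lmFit, eBayes, two-sided, Benjamini-Hochberg over 18194 genes, threshold 0.05) on 2 arrays against 1, with 2.38 degrees of freedom in all after moderation. The fit was tested on simulated data of 18194 genes, each with the SD of its own 2 high-calcium values. It called 0% of the genes altered by 1, by 2 and by 4 log2 units. An SD from 2 values is itself uncertain, so this share need not hold for the data. Where arrays were simulated with an SD of 0.1 for every gene, all altered genes (100%) were called, and 12 unaltered genes besides.

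Members and pathway lists were chosen with earlier results of these data known. Of 75 listed pathway genes 68 had a probe set of their own, and the other 7 are not analysed here. The text names all members with every probe set, and pathway genes from a fixed list of names, with Crat and Slc22a5 added. Promoter windows were from RefSeq on GRCm38.p6, which served for sequence and place only. Alternatives were other probe set choices, 2 scalings, a filter on dim genes, a variance trend, a floor of 0.05 and leaving out each high-calcium array. Each member probe set by itself was added after the data had been seen. Figures used matplotlib 3.10.9 under Python 3.11.15.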

Additional observations from a re-analysis of the deposited data

Results flagged for a closer look

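On the array of unsettled diet, which no comparison uses, 5 members had a log2 signal above that of the standard array: Hadhb by 0.22, Ppara by 0.12, Acadm by 0.11, Hadha by 0.0380 and Acadl by 5.64e-04. The probe set shared by Gm44502, Cpt1b and Chkb, left out because it has several symbols, was above the standard array by 2.23 on high-calcium replicate 1 and by 0.62 on replicate 2. The values of the array of unsettled diet have no replicate check, and the high-calcium values of the shared probe set are set against a single standard array. No group had enough arrays for a test of outlying samples.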

How the results depend on the processing

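No member passed the threshold under any alternative with a test. Over all genes, 0 calls became 96 on median-centred arrays and 6 with a variance trend and robust estimation, and 0 under the others. Averaging all probe sets of a gene gave 0.38 for Cpt2 and -0.13 for Ppara, both with the opposite sign. Cpt2 was 0.99 with its dim probe set alone. Ppara was -0.16 after quantile normalization, -0.18 after centring and -0.92 with its second probe set alone. Leaving out a high-calcium array gave -0.26 to 0.21 for Hadha and -0.25 to 0.17 for Hadhb, positive without replicate 1. On centred arrays the medians were -0.47 for the members, -0.39 for other mitochondrial genes, -0.37 for peroxisomal genes, -0.40 for PPAR partners and -0.25 for other PPAR targets. The PPAR partner median was also -0.00933 with averaged probe sets, -0.0213 without shared probe sets, -0.17 after quantile normalization and -0.14 above background. The peroxisomal median was 0.0263, thus positive, with averaged probe sets. That of PPAR targets was -0.0182 with averaged probe sets and -0.0559 after quantile normalization. Leaving out an array gave -0.26 to -0.04 for the members, -0.10 to -0.0872 for other mitochondrial genes, -0.0310 to 0.13 for peroxisomal genes, positive without replicate 2, -0.12 to -0.0902 for PPAR partners and 0.0705 to 0.17 for PPAR targets. The causes were not tested. With a replicate left out there is no residual degree of freedom and so no test. No paired analysis was possible because the labels number only the high-calcium replicates and the diets were fed to different mice.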
